A study of Mus musculus with 32 samples.

Results

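Btg1, Btg2, Btg3, Tob1, Tob2, Zfp36, Zfp36l1 and Zfp36l2 encode adaptors that shorten the life of messenger RNAs, and their transcripts were followed across 3 treatments of cultured mouse hippocampal neurons. The 8 genes were taken by symbol from a total RNA table of 51267 features, and all 8 were among the 17173 features that passed the filter on low counts. Their choice used no measured value as a rule, although results of these data were already known when the list was drawn up.

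The proteins work at the first step of mRNA decay, the removal of the poly(A) tail. Btg and Tob proteins share an N-terminal domain that binds the Caf1 deadenylases of the CCR4-NOT complex, and the Tob proteins also bind the cytoplasmic poly(A)-binding protein. Zfp36 proteins read AU-rich elements in 3′ untranslated regions with a pair of CCCH zinc fingers and recruit CCR4-NOT to those transcripts. Btg2 and Zfp36 are themselves immediate-early genes, that is, genes transcribed within minutes of a stimulus without new protein synthesis. Their own mRNAs are short-lived. In the brain Btg2 is best known for its expression in neural progenitors about to produce neurons.

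Cultures from newborn mice were treated at day 16 in vitro for 30 minutes. The 6 FSK libraries received 50 µM forskolin, which activates adenylyl cyclase and raises cAMP, and the 6 DHPG libraries received DHPG at 30 µM, which stimulates the metabotropic glutamate receptors mGluR1 and mGluR5. The 4 DMSO libraries received the vehicle. The labels name no strain, genotype or sex and no driver or transgene. They do not say whether the libraries of a group came from separate cultures or animals, so p-values measure only the spread between libraries, which may be technical.

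The libraries fell into 2 sets by depth, which the labels do not describe. FSK 4 to 6, DHPG 6 and DMSO 2 to 4 held 38409918 to 59958600 counts and are called deep, while the other 9 held 20677117 to 24892959 and are called shallow. Treatment and set are therefore partly confounded, so results are also given within sets and with a term for the set. The 13 markers of excitatory neurons and the 14 of astrocytes were above 0 in every library. The summed level of 16 microglia markers was 289 and 499 counts per 1000000 (CPM) in FSK 4 and FSK 5 and 25.8 to 65.0 CPM in the other 14 libraries, so results are given without these libraries too. In bulk RNA, fewer cells of a type and less RNA per cell cannot be told apart.

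RefSeq promoter windows (build GRCm38.p6, 250 bases before to 50 after the annotated start) matched 7 of the 8 genes, Btg3 with 2 windows. Zfp36l2 had no entry. The windows of Btg2 and Btg1, the genes that rose with forskolin, and of Zfp36 are shown because they hold letter matches to different response elements of immediate-early genes. Capitals mark matches on either strand to TGACGTCA, the full cAMP response element (CRE), to its core TGACG, or to the CArG box, the core of the serum response element. Positions count from 0 at the start site.
Btg2, chr1:134079106-134079405, minus strand: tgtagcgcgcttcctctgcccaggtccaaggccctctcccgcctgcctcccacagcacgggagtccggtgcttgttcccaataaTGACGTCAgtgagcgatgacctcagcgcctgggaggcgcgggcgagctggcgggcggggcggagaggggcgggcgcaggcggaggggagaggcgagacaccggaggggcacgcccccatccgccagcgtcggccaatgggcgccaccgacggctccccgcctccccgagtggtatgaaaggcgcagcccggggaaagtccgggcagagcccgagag
Btg1, chr10:96616751-96617050, plus strand: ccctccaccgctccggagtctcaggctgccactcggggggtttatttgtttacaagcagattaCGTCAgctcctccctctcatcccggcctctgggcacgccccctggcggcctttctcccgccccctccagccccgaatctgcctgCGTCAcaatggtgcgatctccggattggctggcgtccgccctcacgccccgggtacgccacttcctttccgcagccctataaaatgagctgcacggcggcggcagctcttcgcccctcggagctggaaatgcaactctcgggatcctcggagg
Zfp36, chr7:28379179-28379478, minus strand: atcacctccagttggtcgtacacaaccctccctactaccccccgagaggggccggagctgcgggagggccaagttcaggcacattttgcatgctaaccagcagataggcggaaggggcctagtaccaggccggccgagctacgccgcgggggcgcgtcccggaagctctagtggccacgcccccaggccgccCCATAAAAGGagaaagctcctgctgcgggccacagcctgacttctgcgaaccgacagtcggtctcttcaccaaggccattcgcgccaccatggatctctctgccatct
The Btg2 window held 1 full CRE, first base at -166, which contains the core on both strands. The full CRE occurred in 1.79% of all 32851 promoter windows. The Btg1 window held no full CRE and 2 cores on the minus strand, at -187 and -103, and the Tob1 window held 1 core at -96. The Tob1 position counts from a start at base 94211454 of chromosome 11, inside the gene, which runs from 94209842 to 94215495. The core was in 20.8% of windows. The Zfp36 window held 1 CArG box at -58, a motif in 1.63% of windows. The Zfp36l1 window held 1 match to TGANTCA, a loose AP-1-like pattern that allows any central base, at -129. The matched letters were TGATTCA, and the loose pattern was in 7.81% of windows. None of these motifs, nor the Egr site GCGTGGGCG (0.612% of windows), was in the windows of Btg3 or Tob2, and GCGTGGGCG was in no window of the 7 genes. A match is a run of letters and not a tested site.

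Btg2 and Btg1 mRNAs rose with forskolin, and no other of the 8 genes passed an adjusted p of 0.05. The count was 2 of 8, both higher, where 0.809% of all features tested passed and 0.349% passed as higher. Levels are CPM over the tested features scaled with trimmed mean of M values factors, and log2 fold changes are given ± standard error from the edgeR quasi-likelihood test, with p adjusted by Benjamini-Hochberg over all 17173 features. The median log2 fold change of the 8 genes was 0.69, and that of all features was 0.02. All 8 values were above 0, where 52.05% of all features were, with Tob2 at 0.01 ± 0.26. Without FSK 4 and FSK 5, Tob2 and Zfp36l1 were below 0 (-0.40 and -0.39).

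Btg2, the most strongly changed of the 8 genes, had 195, 201, 196, 311, 325 and 205 CPM in FSK 1 to 6. In DMSO 1 to 4 it had 18.9, 77.8, 40.8 and 41.1 CPM. Every FSK library stood above every DMSO library, and the lowest FSK library was above the highest DMSO library by more than the whole DMSO range. The means were 239 ± 61.5 CPM in FSK (SD, n = 6) and 44.6 ± 24.4 CPM in DMSO (SD, n = 4). The log2 fold change was 2.42 ± 0.38 (edgeR adjusted p = 0.0101), a 5.34-fold increase with a 95% interval of 1.61 to 3.23 on the log2 scale. By p it ranked 17 among all features tested.

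Btg1, an antiproliferative paralog of Btg2, had 41.3, 42.4, 40.6, 47.3, 44.7 and 49.6 CPM in FSK 1 to 6. The vehicle libraries DMSO 1 to 4 had 17.9, 26.8, 27.7 and 24.3 CPM. The groups did not overlap, and the FSK libraries were more alike than those of Btg2. The means were 44.3 ± 3.57 CPM in FSK (SD, n = 6) and 24.2 ± 4.40 CPM in DMSO (SD, n = 4). The rise was 0.87 ± 0.17 log2 units (edgeR adjusted p = 0.0341), or 1.83-fold. Btg1 and Btg2 were 2 of 8 genes whose FSK libraries all lay above DMSO, against 3.62% of all features tested.

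With the replicate block both still passed (2 of 8, where 3.09% of all features did). Leaving out single libraries moved the calls more. Without DMSO 3 Btg2 had 2.38 (edgeR adjusted p = 0.071) and Btg1 0.94 (edgeR adjusted p = 0.119), and Btg1 also missed the limit without DMSO 1, 2 or 4, DHPG 2, or FSK 2, 4 or 5, with 0.76 to 0.94 over all libraries left out in turn. Pseudogene copies of Btg1 carried 0 and 1 counts over the 16 libraries.

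Btg3, the remaining Btg protein found here, showed no such separation. It had 4.40 to 7.75 CPM in FSK (median 5.30) and 4.24, 5.41, 5.27 and 5.63 CPM in DMSO 1 to 4. The ranges overlapped, with 2 of 6 FSK libraries above every DMSO library. The log2 fold change was 0.17 ± 0.19 (edgeR adjusted p = 0.649), with a 95% interval of -0.24 to 0.57. Btg4, the oocyte member of the family, had 10 counts over all 16 libraries and was not tested.

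**Figure D1:**
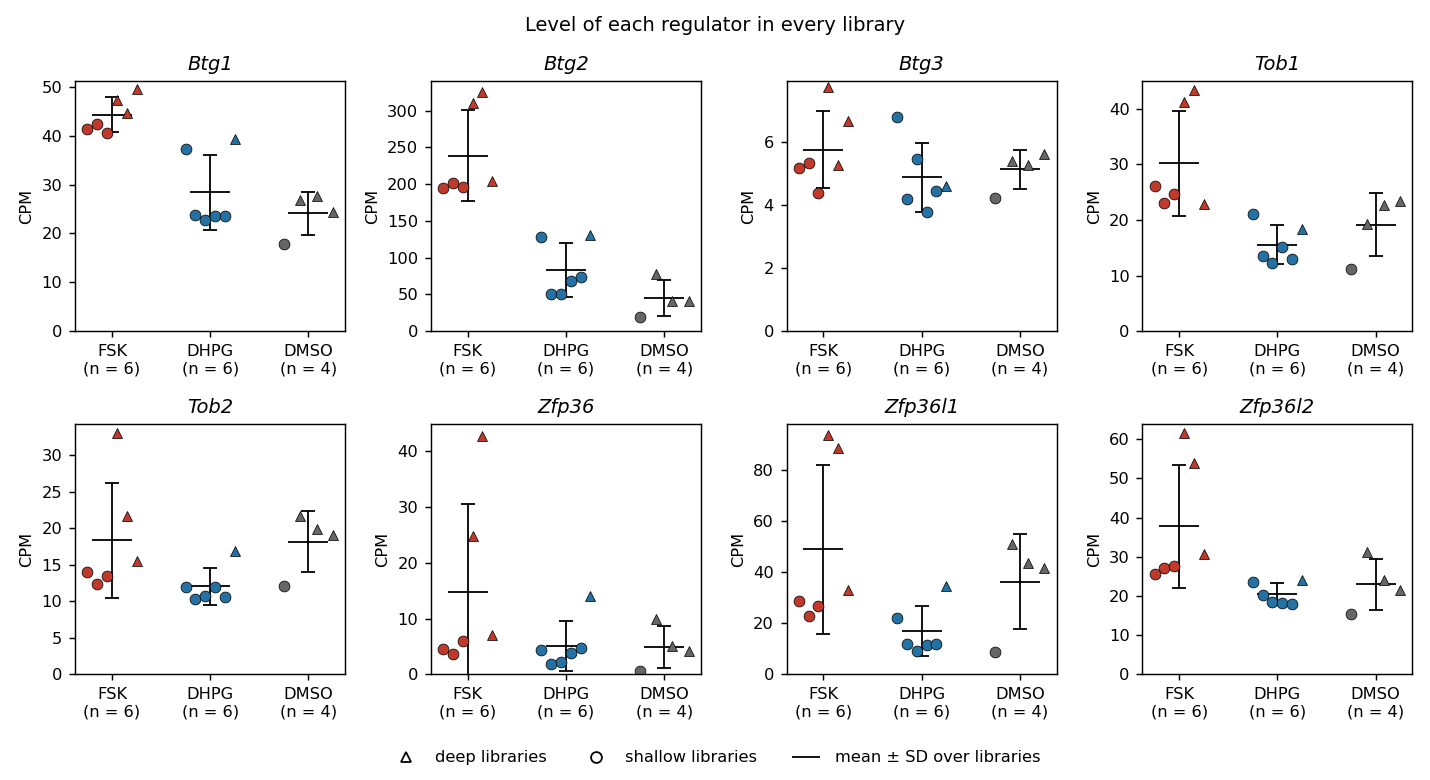
CPM (linear axes from 0) of each of the 8 genes in each library, FSK, DHPG and DMSO from left to right, with triangles for deep and circles for shallow libraries and a bar for the mean ± SD (cut off at 0 for Zfp36). All 6 FSK libraries of Btg2 (195 to 325 CPM) and Btg1 (40.6 to 49.6 CPM) lie above all other libraries, and FSK 4 and FSK 5 stand above the other FSK libraries for Btg2, Tob1, Tob2, Zfp36, Zfp36l1 and Zfp36l2.

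Of the Tob genes, Tob1 had 26.1, 23.0, 24.6, 41.2, 43.3 and 22.8 CPM in FSK 1 to 6. In DMSO 1 to 4 it had 11.1, 19.3, 22.6 and 23.4 CPM. FSK 2 and FSK 6 lay within the DMSO range and the other 4 lay above it. The difference on the log2 scale was 0.66 ± 0.24 (edgeR adjusted p = 0.147). It was 0.82 ± 0.19 with the library-set term (edgeR adjusted p = 0.0246). Without FSK 4 and FSK 5 it was 0.33 ± 0.21 (edgeR adjusted p = 0.384), and 0.55 ± 0.22 with the term added (edgeR adjusted p = 0.199).

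Tob2 had 14.01, 12.3, 13.4, 33.1, 21.6 and 15.5 CPM in FSK 1 to 6. Levels in DMSO 1 to 4 were 12.1, 21.6, 19.9 and 19.1 CPM. Only FSK 4 and, by a small margin, FSK 5 were above every DMSO library. Its log2 fold change was 0.01 ± 0.26 (edgeR adjusted p = 0.981), with a 95% interval of -0.53 to 0.56, and its sign turned with the libraries used, at -0.40 ± 0.19 without FSK 4 and FSK 5. With limma-voom it was lower in FSK (-0.49 ± 0.13, limma adjusted p = 0.00752), 1 of 3 calls among the 8 genes where 35.1% of all features passed.

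Among the Zfp36 genes, Zfp36 itself, which encodes tristetraprolin, had 4.60, 3.67, 6.05, 24.7, 42.6 and 6.97 CPM in FSK 1 to 6. In DMSO 1 to 4 it had 0.62, 9.86, 5.11 and 4.19 CPM, the first resting on 13.65 estimated counts. FSK 4 and FSK 5 were above every DMSO library and the other 4 FSK libraries lay within the DMSO range. The log2 fold change was 1.57 ± 0.81 (edgeR adjusted p = 0.273), the widest error of the 8 genes, and without FSK 4 and FSK 5 it was 0.10 ± 0.66 (edgeR adjusted p = 0.946).

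Zfp36l1, a paralog with the same kind of zinc fingers, had 28.7, 22.8, 26.8, 93.7, 88.7 and 33.0 CPM in FSK 1 to 6. The DMSO libraries 1 to 4 had 8.97, 51.1, 43.6 and 41.7 CPM. The deep DMSO libraries were above FSK 1, 2, 3 and 6, and FSK 4 and FSK 5 were above all. This gave a log2 fold change of 0.43 ± 0.52 (edgeR adjusted p = 0.675), which was 0.11 without DMSO 1, 0.14 without FSK 4, 0.18 without FSK 5, and up to 0.66 without DMSO 2.

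Zfp36l2, the third paralog, had 25.7, 27.1, 27.7, 61.5, 53.8 and 30.8 CPM in FSK 1 to 6. In DMSO 1 to 4 it had 15.4, 31.1, 24.1 and 21.4 CPM. Again FSK 4 and FSK 5 alone were above every DMSO library. The difference was 0.72 ± 0.26 (edgeR adjusted p = 0.136), and 0.27 ± 0.17 without FSK 4 and FSK 5 (edgeR adjusted p = 0.381). Zfp36l3, a placental member in the mouse, had 1 count over all 16 libraries, and a pseudogene of Zfp36l1 had 2.09.

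**Figure D2:**
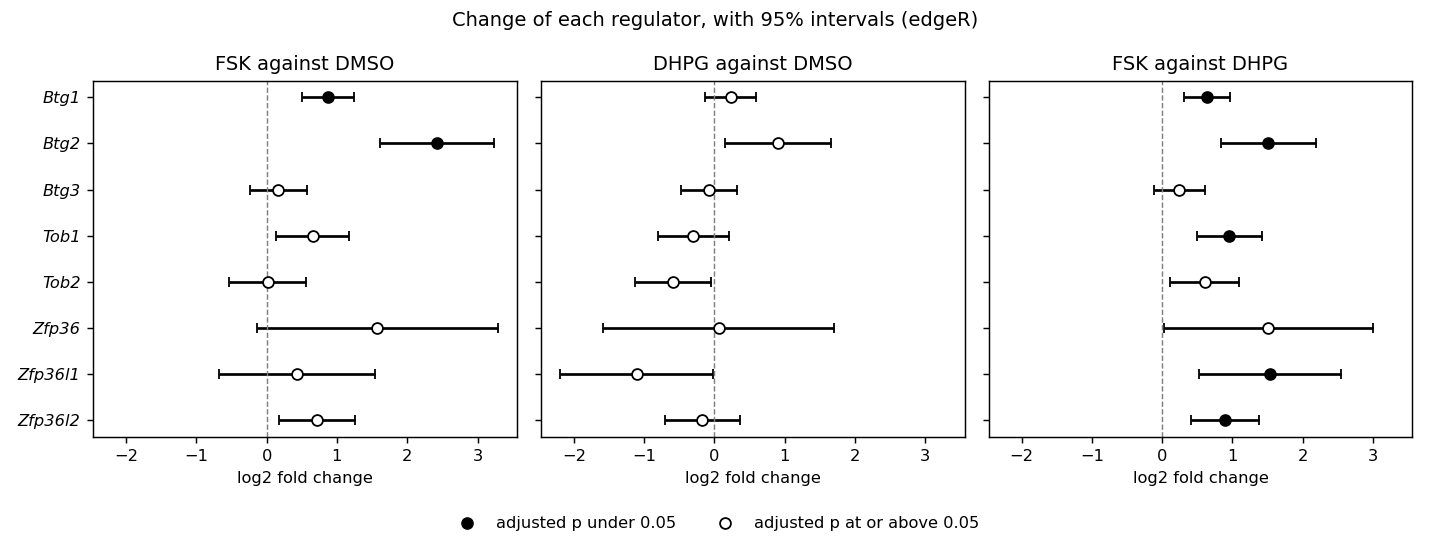
Log2 fold change of each gene in the 3 comparisons, with its 95% interval, filled where the edgeR adjusted p is under 0.05. Btg1 and Btg2 are filled for FSK against DMSO, none for DHPG against DMSO, and Btg1, Btg2, Tob1, Zfp36l1 and Zfp36l2 for FSK against DHPG.

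With DHPG none of the 8 genes passed, where 0.00582% of all features tested did in edgeR (1 feature). At an unadjusted p under 0.05 there were 3 of the 8, Btg2, Tob2 and Zfp36l1, against 12.4% of all features. Counts past the adjusted limit were 0 with the DESeq2 Wald test and 4 with limma-voom, which called 34.6% of all features. Of these 4, Btg2 was higher (0.67 ± 0.25, limma adjusted p = 0.044) and 3 were lower. For 0 of the 8 the DHPG and DMSO libraries did not overlap, against 1.31% of all features. The median of the 8 log2 fold changes was -0.12, beside -0.01 for all features. The same 4 DMSO libraries served both treatments.

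Btg2 had 128, 50.9, 50.0, 68.1, 74.0 and 131 CPM in DHPG 1 to 6, against 18.9, 77.8, 40.8 and 41.1 CPM in DMSO 1 to 4. DHPG 1 and DHPG 6 were above every DMSO library and the other 4 lay between DMSO 3 and DMSO 2. The log2 fold change was 0.91 ± 0.36 (edgeR adjusted p = 0.40). Within each set the DHPG libraries were all above the DMSO libraries, with log2 fold changes of 1.30 ± 0.44 in the deep set (edgeR adjusted p = 0.862, 1 DHPG and 3 DMSO libraries) and 1.97 ± 0.53 in the shallow set (edgeR adjusted p = 1, 5 DHPG and 1 DMSO library). Each of these comparisons has an arm of 1 library that is assumed to vary like the other groups, so neither shows a spread of its own.

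Btg1 had 22.8 to 39.3 CPM in DHPG (median 23.7) and 17.9 to 27.7 CPM in DMSO, a log2 fold change of 0.23 ± 0.17 (edgeR adjusted p = 0.495). Tob2 had 10.3 to 16.9 CPM in DHPG (median 11.3) and 12.1 to 21.6 CPM in DMSO, and 5 of 6 DHPG libraries were below every DMSO library (-0.59 ± 0.26, edgeR adjusted p = 0.40). Zfp36l1 had 9.06 to 34.5 CPM in DHPG (median 11.9) and 8.97 to 51.1 CPM in DMSO (-1.11 ± 0.51, edgeR adjusted p = 0.40). Both values were nearer 0 once the library set was in the fit, at -0.14 ± 0.17 for Tob2 and -0.05 ± 0.33 for Zfp36l1. The remaining genes had -0.08 ± 0.19 (Btg3), -0.30 ± 0.24 (Tob1), 0.06 ± 0.78 (Zfp36) and -0.17 ± 0.25 (Zfp36l2). Other values were further above 0 with the library-set term, at 1.58 ± 0.51 for Zfp36 and 0.46 ± 0.15 for Btg1 (edgeR adjusted p = 1 for both). Btg2 moved the same way, to 1.43 ± 0.32 (edgeR adjusted p = 0.554). Zfp36 had 1.13 ± 0.70 within the deep and 2.44 ± 1.002 within the shallow libraries. The sign for Btg3 turned to 0.02 when libraries were scaled by their totals.

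Set against each other, forskolin gave higher levels than DHPG for 5 of the 8 genes, where 30.8% of all features tested passed and 16.3% passed as higher. Btg2 averaged 239 ± 61.5 CPM in FSK and 83.7 ± 36.8 CPM in DHPG (SD, n = 6 each), a difference of 1.51 ± 0.32 log2 units (edgeR adjusted p = 0.0164). Btg1 averaged 44.3 ± 3.57 CPM in FSK and 28.4 ± 7.70 CPM in DHPG (0.64 ± 0.15, edgeR adjusted p = 0.0168). For both genes, and for Tob1 and Zfp36l2, every FSK library was above every DHPG library, which makes 4 of 8, against 3.21% of all features.

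Tob1 had 22.8 to 43.3 CPM in FSK (median 25.3) and 12.3 to 21.1 CPM in DHPG (median 14.3), higher by 0.96 ± 0.22 log2 units (edgeR adjusted p = 0.0164). Zfp36l2 had 25.7 to 61.5 CPM in FSK (median 29.3) and 17.9 to 24.2 CPM in DHPG (median 19.3), higher by 0.89 ± 0.23 (edgeR adjusted p = 0.0177). For these genes, unlike Btg2, the comparison with DMSO did not pass for either treatment. Zfp36l1 was higher in FSK than in DHPG by 1.54 ± 0.48 (edgeR adjusted p = 0.0277), with 2 of 6 FSK libraries above every DHPG library. The 14 astrocyte markers summed to 6072 to 8647 CPM in FSK and 4212 to 7496 CPM in DHPG, the 14 oligodendrocyte lineage markers to 709 to 1590 CPM in FSK and 555 to 1037 CPM in DHPG, and the 16 microglia markers to 29.3 to 499 CPM in FSK and 31.5 to 65.0 CPM in DHPG. Of those tested, 6 of 14 astrocyte, 7 of 13 oligodendrocyte lineage and 11 of 16 microglia markers were higher in FSK past the limit. The share of all features that passed as higher was 16.3%. Past the limit, 1 oligodendrocyte lineage marker was lower in FSK, and 0 of the astrocyte or microglia markers were. Up to 2 of the oligodendrocyte lineage markers were at 0 in DHPG libraries 2 to 5, and 0 in the others. The part of these markers in the differences was not tested.

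Tob2 (0.61 ± 0.23, edgeR adjusted p = 0.0565, 95% interval 0.12 to 1.10), Zfp36 (1.51 ± 0.70, edgeR adjusted p = 0.105, interval 0.02 to 2.997) and Btg3 (0.24 ± 0.17, edgeR adjusted p = 0.274, interval -0.12 to 0.60) missed the limit. The Zfp36l1 call was lost without DHPG 2, 3 or 5 or FSK 4 or 5 (1.25 to 1.45) and with the replicate block (1.42, edgeR adjusted p = 0.072). Tob2 passed without DMSO 1, DHPG 6, or FSK 1, 2 or 3 (0.60 to 0.73), and Zfp36 passed without DHPG 6 (2.13, edgeR adjusted p = 0.0366). Without FSK 4 and FSK 5 together 0 of 8 passed (0.0179% of 16723 features), with Btg2 at 1.25 (edgeR adjusted p = 0.0899), and with the library-set term added Btg1, Btg2, Tob1 and Zfp36l2 passed (4 of 8, where 9.27% of features did). With the replicate block 4 of 8 passed as well, where 24.3% of features did. Within the deep libraries 1 of 8 passed, Zfp36l2 (1.01, edgeR adjusted p = 0.045), where 15.1% of features did, but DHPG has 1 deep library, whose spread is taken from the other groups, and within the shallow ones 0 of 8, where 0.0466% did.

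Within the sets the forskolin values differed most for Btg2, Zfp36 and Zfp36l1. In the deep libraries Btg2 averaged 280 ± 65.6 CPM in FSK and 53.2 ± 21.3 CPM in DMSO (SD, n = 3 each), a log2 fold change of 2.40 ± 0.35 (edgeR adjusted p = 0.00114). In the shallow libraries it averaged 197 ± 3.25 CPM in FSK (SD, n = 3) and 18.9 CPM in the lone DMSO library, a log2 fold change of 3.38 ± 0.59 (edgeR adjusted p = 0.103), on the assumption that this library varies like the other groups. Btg1 had 0.85 ± 0.16 in the deep set (edgeR adjusted p = 0.00495) and 1.21 ± 0.24 in the shallow set (edgeR adjusted p = 0.181). The difference of the forskolin effect between sets was -0.99 ± 0.60 for Btg2 and -0.36 ± 0.28 for Btg1, and it passed for 0 of the 8 genes (0.0175% of all features, 0 of the 8 also at an unadjusted p under 0.05).

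Zfp36 in the deep set had 24.7, 42.6 and 6.97 CPM in FSK 4 to 6 and 9.86, 5.11 and 4.19 CPM in DMSO 2 to 4 (1.96 ± 0.54, edgeR adjusted p = 0.0329). FSK 6 lay below DMSO 2. In the shallow set it had 4.60, 3.67 and 6.05 CPM in FSK 1 to 3 and 0.62 CPM in DMSO 1 (2.94 ± 1.03, edgeR adjusted p = 0.35). With 1 DMSO library at 13.65 counts that value has no spread of its own. Zfp36l2 passed in the deep set (0.93 ± 0.21, edgeR adjusted p = 0.0132), which makes 4 of 8 with Btg1, Btg2 and Zfp36, against 11.8% of all features. For Zfp36l2 too FSK 6 (30.8 CPM) lay below DMSO 2 (31.1 CPM). In the shallow set 0 of 8 passed, against 0.0466%.

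With the library-set term and all libraries 5 of 8 passed for FSK against DMSO, where 9.45% of all features did. They were Btg2 (2.69 ± 0.31, edgeR adjusted p = 0.00032), Btg1 (0.98 ± 0.14, edgeR adjusted p = 0.00171), Zfp36l2 (0.86 ± 0.18, edgeR adjusted p = 0.0157), Zfp36 (2.11 ± 0.46, edgeR adjusted p = 0.0186) and Tob1. With the term but without FSK 4 and FSK 5 only Btg2 (2.66 ± 0.39, edgeR adjusted p = 0.00901) and Btg1 (1.10 ± 0.16, edgeR adjusted p = 0.00433) passed, where 0.335% of features did. Zfp36 then had 1.37 ± 0.53 (edgeR adjusted p = 0.195) and Zfp36l2 0.50 ± 0.15 (edgeR adjusted p = 0.132). Without these libraries and without the term Btg2 had 2.15 ± 0.39 (edgeR adjusted p = 0.0454) and Btg1 0.84 ± 0.20 (edgeR adjusted p = 0.0916).

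**Figure D3:**
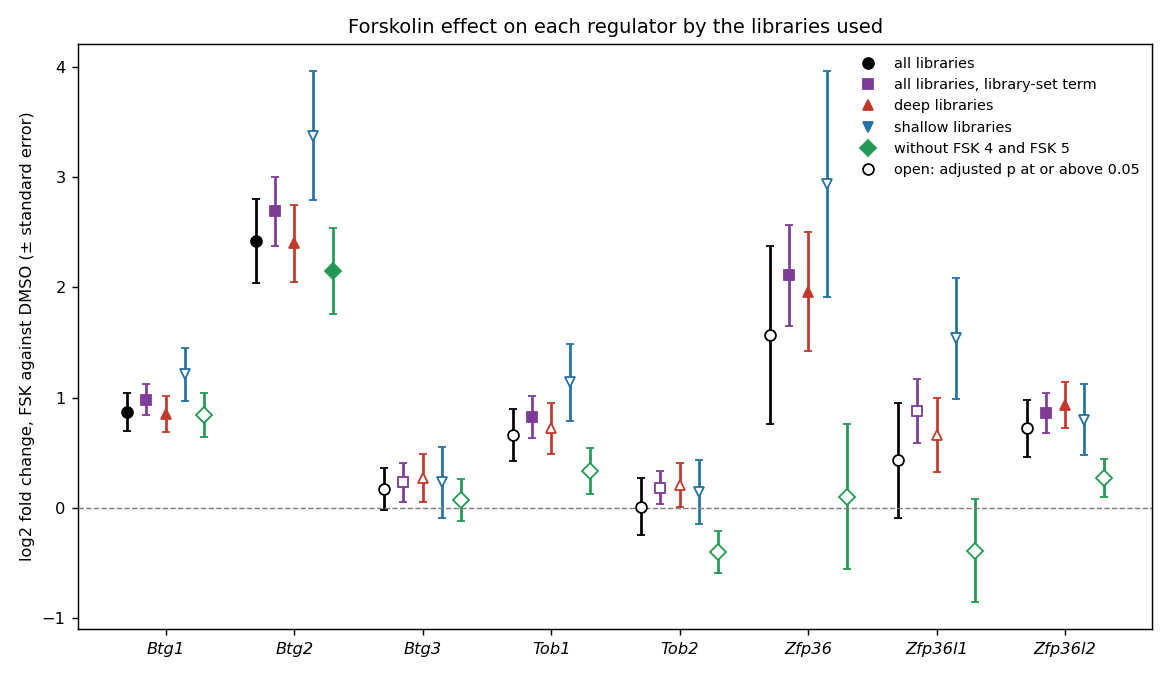
Log2 fold change of FSK against DMSO ± standard error for each gene, from all libraries, with a library-set term, within the deep and the shallow libraries, and without FSK 4 and FSK 5; filled symbols have an edgeR adjusted p under 0.05. Btg2 lies between 2.15 and 3.38 and Btg1 between 0.84 and 1.21 in all 5, while Zfp36 runs from 0.10 to 2.94 and Tob2 and Zfp36l1 are below 0 without FSK 4 and FSK 5.

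FSK 4 and FSK 5, with the highest microglia markers, held the top 2 values of all libraries for 6 of the 8 genes, all but Btg1 and Btg3. In them Zfp36 had 24.7 and 42.6 CPM, Zfp36l1 93.7 and 88.7 CPM and Zfp36l2 61.5 and 53.8 CPM, each above all 14 other libraries. FSK 6, the other deep FSK library, held 29.3 CPM of these markers and had 6.97, 33.0 and 30.8 CPM of the same genes. None of the 16 markers was at 0 in any library. The 13 excitatory neuron markers summed to 1690 and 1816 CPM in FSK 4 and FSK 5, below the 2374 to 3205 CPM of the other 14 libraries. Inhibitory neuron markers summed to 834 and 715 CPM in them, below the 1027 to 1703 CPM of the other 14. Endothelial, mural and fibroblast markers were highest in FSK 4 (497 CPM) and oligodendrocyte lineage markers in FSK 5 (1590 CPM). Tob1 had 41.2 and 43.3 CPM in FSK 4 and FSK 5 and Btg2 had 311 and 325 CPM, and Tob2 had 33.1 and 21.64 CPM, the second just above the 21.62 CPM of DMSO 2. Btg2 had 195 to 205 CPM in the 4 FSK libraries with 29.3 to 63.4 CPM of microglia markers, above every DHPG and DMSO library. The part of any of these markers in the levels was not tested.

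**Figure D4:**
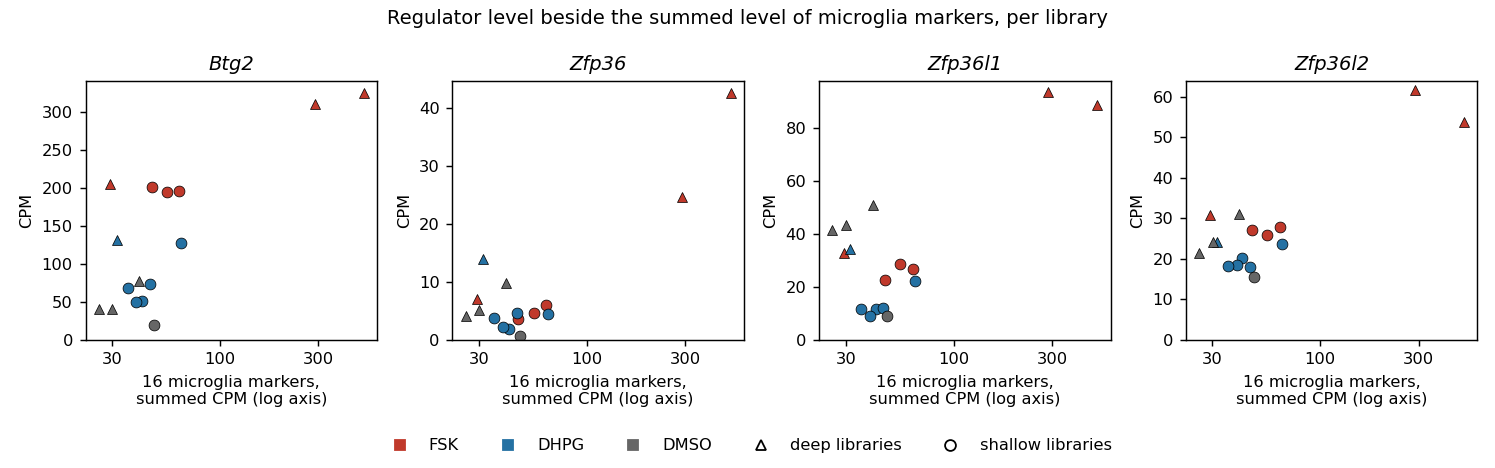
CPM of Btg2, Zfp36, Zfp36l1 and Zfp36l2 in each library against the summed CPM of 16 microglia markers (log axis), coloured by treatment, with triangles for deep and circles for shallow libraries. FSK 4 and FSK 5 stand alone at 289 and 499 CPM of markers and at the top for all 4 genes. The other 4 FSK libraries have 195 to 205 CPM of Btg2 and 29.3 to 63.4 CPM of markers. The part of the markers in the levels was not tested.

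Zfp36l1 also differed between the sets within treatments. It had 34.5 CPM in DHPG 6, the lone deep DHPG library, and 9.06 to 22.1 CPM in the 5 shallow ones, and 41.7 to 51.1 CPM in the deep DMSO libraries and 8.97 CPM in the shallow one. Astrocyte markers were higher in the same deep libraries, at 7496 CPM in DHPG 6 beside 4212 to 5869 CPM in DHPG 1 to 5, and at 7602 to 8365 CPM in DMSO 2 to 4 beside 5245 CPM in DMSO 1. Endothelial, mural and fibroblast markers were higher there too, at 165 CPM in DHPG 6 beside 62.1 to 133 CPM in DHPG 1 to 5. They summed to 152 to 366 CPM in DMSO 2 to 4 and 95.6 CPM in DMSO 1. Cycling cell markers went the other way, at 89.2 CPM in DHPG 6 beside 157 to 231 CPM in DHPG 1 to 5. They summed to 95.2 to 120 CPM in DMSO 2 to 4 and 204 CPM in DMSO 1. The part of these markers in the Zfp36l1 levels was not tested.

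The profile of Btg2 across the 16 libraries was closest to those of Fos and Nr4a1. Likeness was measured as the root mean square difference between log2 CPM profiles centred on their own means, and it was 0.23 log2 units for Fos, an AP-1 subunit, 0.29 for Nr4a1, an orphan nuclear receptor, and 0.35 for Gm38257. The SD of Btg2 itself over the libraries was 1.20. For Btg1 (SD 0.47) the closest were Arid5a, an RNA-binding protein that protects some cytokine mRNAs, at 0.17, and Wsb1 and Noct, the clock-linked nocturnin, both at 0.21. Arid5a (0.83, edgeR adjusted p = 0.0435) and Noct (0.98, edgeR adjusted p = 0.0494) passed with FSK, and Wsb1 did not (0.71, edgeR adjusted p = 0.0788). These genes were picked for profiles like that of Btg1 in the same libraries, so their p-values are no separate evidence.

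The other 6 genes had different neighbours. Zfp36 (SD 1.42) was closest to Gm13293 (0.59), Lrrc71 (0.64) and Dusp1 (0.68), the last a phosphatase that switches off MAP kinases. All 3 distances were larger than for any other of the 8 genes. The distances are not scaled by SD, however, and Zfp36 had the largest SD of the 8. Zfp36l1 (SD 1.08) was closest to Ankef1 (0.199), Dnah5, a dynein heavy chain of motile cilia (0.21), and Prune2 (0.24). Zfp36l2 (SD 0.54) was closest to Tmem176b (0.17), Vcam1, an adhesion molecule (0.17), and Cflar, an inhibitor of caspase activation (0.18). Tob1 (SD 0.57) was closest to 1190002N15Rik (0.13), Vwa5a (0.16) and the selenium carrier Selenop (0.17). Tob2 (SD 0.48) was closest to the cytokine receptor subunit Il6st, Npas3 and the corepressor Tle3 (0.14 to 0.15), and Btg3 (SD 0.28) to Immp1l, Dsn1 and Eed (0.15 to 0.17). Libraries that share a set and a treatment enter all these distances, which carry no test.

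None of the genes listed as deadenylases and partners passed the limit with forskolin or DHPG against DMSO. Noct, which passed with FSK as given above, was not on that list. Of 22 deadenylases and partners 0 passed with FSK (median log2 fold change 0.07) and 0 with DHPG (median -0.01). At the shares over all features, 0.809% with FSK and 0.00582% with DHPG, a count of 0 is not particular to this or the next 2 lists. Smallest in p were Paip2, which binds the poly(A)-binding protein, at 102 ± 6.97 CPM in FSK and 79.9 ± 7.06 CPM in DMSO (0.35 ± 0.12, edgeR adjusted p = 0.116), and the deadenylase Cnot6 at 25.5 ± 3.58 CPM in FSK and 17.7 ± 4.29 CPM in DMSO (0.53 ± 0.18, edgeR adjusted p = 0.118). With DHPG they were the CCR4-NOT genes Cnot4 (-0.66 ± 0.24) and Cnot3 (-0.66 ± 0.26), each at edgeR adjusted p = 0.40.

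Of 28 decapping and exonuclease genes 0 passed with FSK (median -0.07) and 0 with DHPG (median 0.06). The exosome subunit Exosc4 had -0.41 ± 0.15 and the Lsm ring subunit Lsm2 -0.33 ± 0.14 with FSK (edgeR adjusted p = 0.147 and 0.181). The exonuclease Dis3l2 had 0.31 ± 0.12 and Lsm14b 0.28 ± 0.13 with DHPG (edgeR adjusted p = 0.40 each). Of 29 other 3′ UTR-binding proteins tested, 0 passed with FSK (median 0.07), with Khsrp, which like tristetraprolin destabilises AU-rich transcripts, at -0.39 ± 0.10 (edgeR adjusted p = 0.0654) and Tia1, a translational repressor, at 0.59 ± 0.16 (edgeR adjusted p = 0.0828). With the library-set term Khsrp and Tia1 passed, as did Exosc4 and Lsm4, both lower, among the decapping and exonuclease genes. With DHPG 0 of 29 passed (median -0.21), led by Samd4 (-0.90 ± 0.36) and Samd4b (-0.68 ± 0.29), each at edgeR adjusted p = 0.40.

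Between forskolin and DHPG, where 30.8% of all features passed, the shares in these lists were 10 of 22, 11 of 28 and 12 of 29. Among deadenylases and partners 7 were higher in FSK and 3 lower, with the catalytic subunits Cnot6l (0.79 ± 0.21, edgeR adjusted p = 0.0182) and Cnot6 (0.58 ± 0.16, edgeR adjusted p = 0.0193) and the poly(A)-binding proteins Pabpn1 (0.37 ± 0.11) and Pabpc1 (0.32 ± 0.10) smallest in p. Among decapping and exonuclease genes 4 were higher and 7 lower, with Dis3l2 (-0.49 ± 0.11, edgeR adjusted p = 0.0164), the nuclear exosome subunit Exosc10 (-0.31 ± 0.08), Lsm14b (-0.43 ± 0.11) and the helicase gene Ddx6 (0.38 ± 0.10). Among the other binding proteins 9 were higher and 3 lower, with Tia1 (0.63 ± 0.14, edgeR adjusted p = 0.0164), its paralog Tial1 (0.62 ± 0.16), Pum2 (0.50 ± 0.13) and Rc3h2, which encodes the RING finger protein Roquin-2 (0.57 ± 0.14). Without FSK 4 and FSK 5, where 0.0179% of features passed, 0 passed in each of the 3 lists, and with the library-set term added Pabpn1, then Ddx6, Dis3l2 and Lsm14b, and then Tia1, Tial1, Pum2, Rc3h2 and Elavl2 did.

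Fosb, Ptgs2 and Fos, whose mRNAs tristetraprolin is known to bind, rose with forskolin. Of 24 such transcripts listed, 18 were tested and 17 of these had a log2 fold change above 0, as did 52.05% of all features. The median was 1.28, beside 0.02 for all features. The 3 that passed were Fosb, an AP-1 subunit (3.996 ± 0.45, edgeR adjusted p = 0.000667), the cyclooxygenase gene Ptgs2 (1.93 ± 0.28, edgeR adjusted p = 0.00721) and Fos (2.55 ± 0.45, edgeR adjusted p = 0.0212). Many on this list are immediate-early genes or cytokines and the list was drawn up with results known, so it does not test tristetraprolin. Without FSK 4 and FSK 5 Fosb and Ptgs2 passed, 2 of 17 tested (median 0.84, 14 above 0), and 4 of 17 with the library-set term added. With the term and all libraries 8 of 18 passed, all higher. The shares of all features past the limit were 0.809% with all libraries, 0.227% without FSK 4 and FSK 5, 0.335% without them and with the term, and 9.45% with all libraries and the term. With DHPG 0 of the 18 passed (median 0.24), led by Fosb (1.82 ± 0.40) and Fos (1.16 ± 0.43), each at edgeR adjusted p = 0.40.

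Between the treatments 8 of these 18 were higher in FSK than in DHPG and 0 lower, where 30.8% of all features passed and 16.3% passed as higher. Ptgs2 had 12.5 ± 5.29 CPM in FSK and 4.03 ± 0.86 CPM in DHPG (SD, n = 6 each; 1.63 ± 0.24, edgeR adjusted p = 0.0164). Fosb (2.17 ± 0.34, edgeR adjusted p = 0.0164), Dusp1 (2.06 ± 0.51, edgeR adjusted p = 0.0168) and the chemokine gene Cxcl1 (2.15 ± 0.55, edgeR adjusted p = 0.0178) followed. Tnf, Csf2, Il1b, Il6, Il10 and Cxcl2, with 1 to 132 counts each over the 16 libraries, did not pass the filter. Without FSK 4 and FSK 5 1 of 17 passed, Ptgs2.

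**Figure D5:**
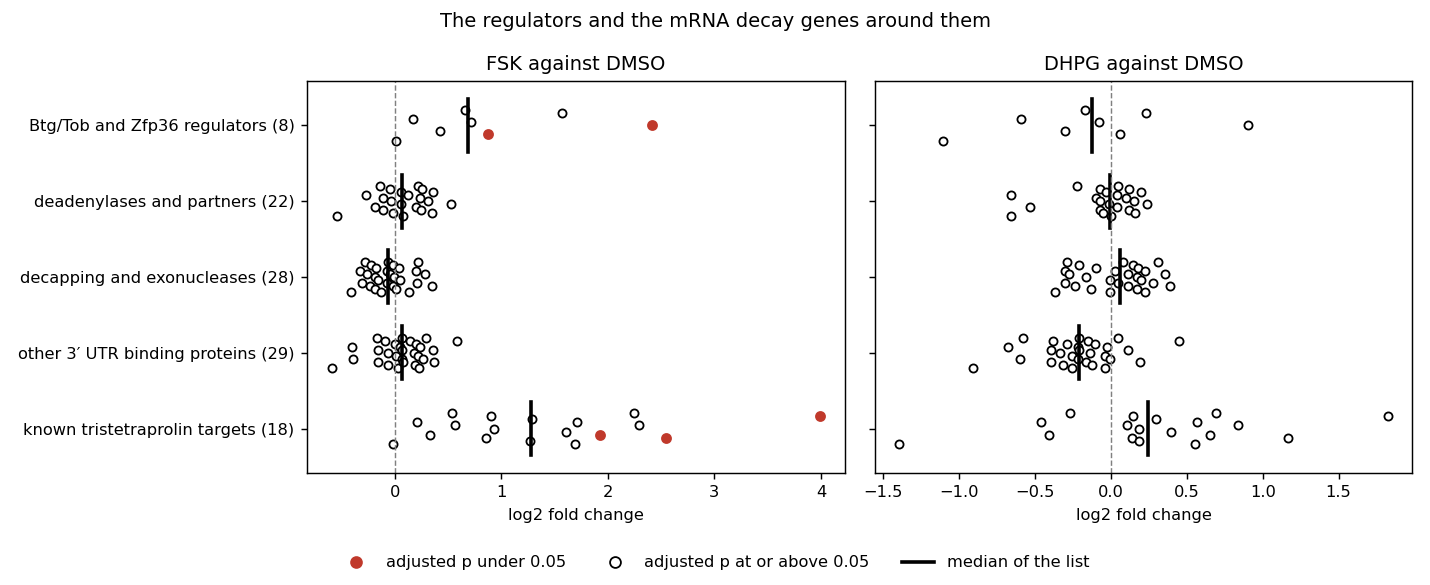
Log2 fold change of each tested gene of the 8 regulators and of 4 lists, FSK against DMSO on the left and DHPG against DMSO on the right. The lists are deadenylases and partners, decapping and exonuclease genes, other 3′ UTR-binding proteins, and transcripts that tristetraprolin is known to bind. Red points have an edgeR adjusted p under 0.05 and bars are at the medians. With FSK the medians are 0.69 for the regulators and 1.28 for known tristetraprolin targets, and -0.07 to 0.07 for the other lists; with DHPG no gene is red.

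The authors' deposited table has 1438 features past an adjusted p of 0.05 with FSK and 240 with DHPG, against 139 and 1 in the edgeR fit here. In the authors' deposited table Btg2 (2.41, adjusted p = 3.36e-10) and Btg1 (0.86, adjusted p = 2.18e-07) are past 0.05 with FSK and the other 6 genes are not, the smallest adjusted p in the authors' deposited table among them being 0.115 for Tob1. For DHPG the authors' deposited table has none of the 8 past 0.05, the smallest being 0.089 for Tob2 (-0.59) and 0.16 for Btg2 (0.91).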

How the data were processed

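Per the labels' protocols, RNA was extracted with Trizol and chloroform and made into Illumina TruSeq Stranded Total RNA libraries. The submitters' processing notes name Salmon, DESeq and the build GRCm38, without versions. The deposited total RNA table holds estimated counts, 26.6% of them not whole, which were rounded. Its columns headed Control were taken as DMSO, paired with the sample titles through their number. The authors' deposited tables give log2 fold changes, p-values and adjusted p-values, and also a mean normalized signal and a Wald score that were not used.

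edgeR 4.0.16 in R 4.3.3 tested all 16 libraries in 1 quasi-likelihood fit (robust, TMM factors, filterByExpr with a minimum count of 10), with Benjamini-Hochberg adjustment over 17173 features and a limit of 0.05. The script was tested on simulated data. CPM are per 1000000 counts of tested features, and log2 CPM used a prior count of 2. Deep libraries have totals above 30000000. DESeq2 1.42.0 and limma 3.58.1 were alternatives, with other scalings, filters, a replicate block, a library-set term and libraries left out. No RefSeq gene overlaps any of the 8 genes.

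All 8 genes are reported whatever their result, with up to 4 passing genes of smallest p per list, or 2 as values where none passed, and the 3 most similar profiles per gene. Elavl2 and Lsm4 were named after their values were seen. The genes and lists were chosen with earlier results of these data known. The miRNA tables were not used here.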

Additional observations from a re-analysis of the deposited data

Results flagged for a closer look

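Zfp36 and Tob2 each had 1 DHPG library far above the other 5. Zfp36 had 14.0 CPM in DHPG 6, with the next highest at 4.72 CPM, a gap of 0.762 of the group's range. Tob2 had 16.9 CPM in DHPG 6, with the next highest at 11.9 CPM, a gap of 0.752 of the range. Both exceed 0.625, the 95% critical value of Dixon's test for 6 samples. DHPG 6 is the lone deep DHPG library. In all 24 groups of 4 or 6 libraries were examined over the 8 genes, and chance alone flags about 1 in 20.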

How the results depend on the processing

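In FSK against DMSO, 2 of the 8 genes passed, and the same count was found with DESeq2 size factors, library totals, the DESeq2 Wald test, no filter, a minimum count of 5, only the 2 groups compared, and the replicate block. It was 3 with limma-voom (2 higher, 1 lower), 5 with the library-set term, 4 within the deep and 0 within the shallow libraries, 1 without FSK 4 and FSK 5, and 0 to 2 with each library left out. In FSK against DHPG the 5 became 1 within the deep libraries, 0 within the shallow ones and 0 without FSK 4 and FSK 5, and 4 to 7 with each library left out. In DHPG against DMSO the 0 became 4 with limma-voom and stayed 0 with each library left out. The difference of the forskolin effect between library sets passed for 0 genes also under 4 other scalings and filters, chosen after seeing the data. Counts over all features differed widely between settings and are given below.

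Over all 17173 features tested, the 139 calls of FSK against DMSO (60 higher, 79 lower) became 146 with DESeq2 size factors. They became 62 with library totals (49 higher, 13 lower), 1255 with the DESeq2 Wald test and 6033 with limma-voom. With no filter they were 66 of 35328, with a minimum count of 5 121 of 19229, and with 2 groups 83 of 17893. They were 1622 with the library-set term, and 2024 with deep and 8 with shallow libraries alone. Without FSK 4 and FSK 5 they were 38 of 16723, and 56 with the term added. With each library left out they ran from 12 to 427. For DHPG against DMSO the 1 became 7 with DESeq2, 5940 with limma-voom and 0 with 2 groups, the term, either set, or without FSK 4 and FSK 5 (with or without the term), and 0 to 5 with each library left out. For FSK against DHPG the 5283 (2803 higher, 2480 lower) became 2510 with library totals (1760 higher, 750 lower), 2905 with no filter, 2594 with deep and 8 with shallow libraries alone, 3 without FSK 4 and FSK 5, 1551 with the term added, and 1804 to 5798 with each library left out. The causes were not tested.

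No pairing by replicate number was seen. Over 14 same-numbered pairs the deviations correlated at -0.41 to 0.39, 3 of them over 0.1, and 2 of 14 libraries correlated best with their own number. Some same-numbered libraries fell in different depth sets, such as FSK 2 (shallow) and DMSO 2 (deep), so these correlations cannot exclude pairing. With the replicate block 531 features passed for FSK against DMSO, 0 for DHPG against DMSO and 4172 for FSK against DHPG; among the 8 genes the counts were 2, 0 and 4.

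Signs turned for genes that had not passed, and 1 of them, Tob2, passed with the turned sign. With FSK against DMSO limma-voom gave -0.04 for Btg3, -0.49 for Tob2 (limma adjusted p = 0.00752) and -0.54 for Zfp36l1; the replicate block -0.11 for Tob2; leaving out FSK 4 and FSK 5 -0.40 for Tob2 and -0.39 for Zfp36l1, and -0.10 for Tob2 with the term added. Tob2 ran from -0.24 to 0.12 with each library left out. With DHPG against DMSO limma-voom gave -0.02 for Btg1 and -0.54 for Zfp36, the block -0.54 for Zfp36, and library totals 0.02 for Btg3. The library-set term gave 0.09 for Btg3, 0.07 for Tob1 and 0.26 for Zfp36l2, and without FSK 4 and FSK 5 as well 0.06 for Btg3 and 0.08 for Zfp36l2. The shallow libraries gave 0.22 for Btg3, 0.43 for Tob1, 0.57 for Zfp36l1 and 0.35 for Zfp36l2. With each library left out Zfp36 ran from -0.56 to 0.65 and Zfp36l2 from -0.32 to 0.02. The causes were not tested.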
